A study of Bos taurus with 31 samples.

Results

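The genes described are the nuclear-encoded subunits of the mitochondrial respiratory chain and of ATP synthase, with the assembly factors that share their names. They were taken by name from the deposited count table: every gene beginning NDUF, UQCR or ATP5, every COX gene numbered 4 to 8, the 4 SDH genes, CYC1 and CYCS. This gave 78 genes of 14084 rows (13407 distinct loci, rows whose counts matched in all libraries being taken once). They comprise 44 genes named for complex I, 4 of complex II, 9 of complex III, cytochrome c, 12 of complex IV and 8 of the ATP5 family. NDUFA4 and NDUFA4L2, named after complex I, were placed with complex IV, where NDUFA4 is a known subunit in human and mouse. Other subunits of these complexes were not analysed here.

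RNA was sequenced from mammary epithelial organoids, the clumps of epithelium left when biopsy tissue is digested with collagenase and single cells are spun away. There were 16 libraries from lactating dairy cows at 40 to 60 days of lactation and 15 from the same cows as virgins of 14 months, with the cow of L495 sampled in lactation only. Libraries are called by L (lactating) or V (virgin) and the animal number. Every lactating sample was taken later in life than its virgin partner and after calving, so stage cannot be told apart from age or parity.

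The respiratory chain sits in the inner mitochondrial membrane. Complex I takes electrons from NADH and complex II from succinate, ubiquinone carries them to complex III, cytochrome c carries them on to complex IV, and complex IV passes them to oxygen. Complexes I, III and IV pump protons as they work, and ATP synthase (complex V) lets the protons back through and makes ATP. Each complex except II combines subunits read from nuclear genes with a few read from mitochondrial DNA. Milk secretion is costly in ATP, and in rodents mammary mitochondria are known to increase around the onset of lactation.

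Total counts per library, each locus counted once, ran from 17637505 to 45478555 in lactation and from 12477568 to 38794104 in virgins. Milk protein genes took 0.243% to 51.5% of the counts in lactation (median 31.2%) and 0.0281% to 0.682% in virgins. L538 (0.243%) and L478 (0.577%) lay below the highest virgin library, V509. The 78 genes together took 0.104% to 0.241% of the counts in lactation and 0.170% to 0.308% in virgins. The fits therefore rest on TMM scaling, which sets aside the few very abundant milk transcripts, and levels are given as CPM over the TMM-scaled library size. With plain totals the median log2 fold change of all 12472 loci tested was -0.55 in place of -0.09, and that of the 78 genes was -0.37 in place of 0.09. Relative to the median of all loci the 78 genes stood at 0.18 under both scalings. A change of scaling shifts the fold changes of all loci nearly alike, so this equality does not test the scaling.

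One virgin library stood apart. V479, the shallowest, had the highest virgin value for 50 of the 78 genes and the lowest for 13, and held the highest or lowest virgin value for 55.7% of all loci tested. Its summed CPM of the 78 genes was 3336, and that of V581 was 2360. Across all libraries the sum ran from 1512 to 2238 in lactation (median 1853) and from 1498 to 3336 in virgins (median 1621). V479 also had the highest virgin sums of the luminal markers (19209 CPM), the myoepithelial markers (9047 CPM) and the lymphocyte markers (48.3 CPM). What part this has in the results was not tested, and counts of genes are given with and without V479.

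The luminal list (14 of 14 found) summed to 3072 to 7917 CPM in lactation and 4146 to 19209 CPM in virgins. Of its genes 3 were higher and 7 lower (21.4% and 50.0%, against 23.8% and 31.3% of all loci). Sums of the myoepithelial list (9 of 10 found, in 8 distinct loci) were 1341 to 3045 CPM in lactation and 1500 to 9047 CPM in virgins. Of the 8 loci 2 were higher and 2 lower. Of the endothelial genes 10 of 10 passed as higher in lactation (23.8% of all loci did), with sums of 392 to 2553 CPM in lactation and 48.7 to 1122 CPM in virgins. Among them PECAM1 shares its row of counts with POLG2. Of the macrophage and monocyte genes 9 of 10 passed as higher, with sums of 177 to 842 CPM in lactation and 22.9 to 112 CPM in virgins. All 8 tested lymphocyte genes passed as higher, with sums of 29.0 to 81.1 CPM in lactation and 4.75 to 48.3 CPM in virgins. Adipocyte genes (2 higher and 1 lower of 5 tested) summed to 48.2 to 1812 CPM in lactation and 12.5 to 255 CPM in virgins. No found marker was at 0 in every library. Since the tissue is a mixture, more cells of a type and more RNA per cell cannot be told apart for any gene below.

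Most of the 78 genes did not pass the test between the stages, which does not show that they were alike. In the test across all loci (edgeR, Benjamini-Hochberg adjusted p under 0.05) 16 were higher in lactation, 7 were lower and 55 did not pass, with a median log2 fold change (lactating over virgin) of 0.09. Of all loci tested 55.1% passed, 23.8% higher and 31.3% lower, against 20.5% and 9.0% of the 78 genes. Of the genes that passed, those that rose furthest were NDUFA4L2, COX4I2, NDUFA4, CYCS and COX7B, all of complex IV or its electron donor. Those that passed and fell furthest were NDUFAF5, the row shared by NDUFS7 and DAZAP1, NDUFAF6 and NDUFAF1. Of these, 3 are complex I assembly factors.

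Leaving out V479 kept all 23 calls and added 18 rises and 1 fall. This gave 34 higher and 8 lower, with a median of 0.21. All loci then passed in 59.8%, with 27.5% higher and 32.3% lower. A fit with the animal as a block gave 20 higher and 5 lower (background 55.4%, 27.9% higher and 27.5% lower). It kept all 16 rises and 4 of the 7 falls, and added the rises of NDUFA8, NDUFA13, NDUFB11 and ATP5IF1 and the fall of NDUFAF4. The blocked fit without the cow of V479 gave 29 higher and 7 lower (background 59.7%, 28.6% higher and 31.1% lower). Under plain totals 4 were higher and 40 lower, where 68.1% of all loci passed, 10.3% higher and 57.9% lower. The 4 that stayed higher there were NDUFA4, NDUFA4L2, COX4I2 and CYCS, and all 7 falls stayed lower. Leaving out the 16 genes whose counted locus shares its row with another gene or is over 1.5 times the RefSeq span left 62, of which 11 were higher and 6 lower (median 0.11).

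**Figure D1:**
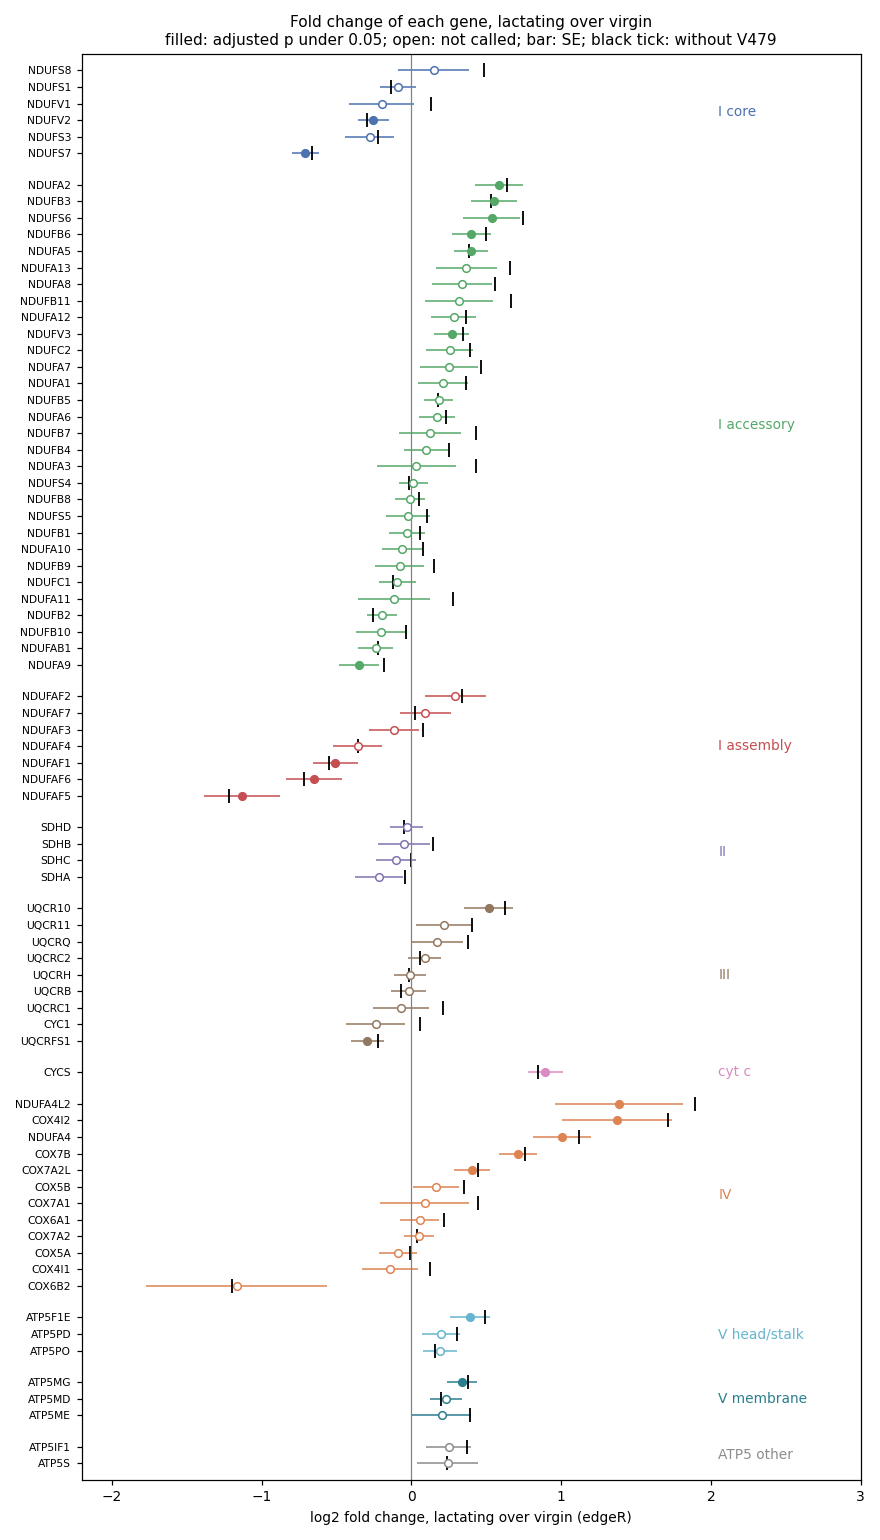
Log2 fold change of all but 1 of the 78 genes, lactating over virgin, with its standard error as a bar; filled points passed the test (adjusted p under 0.05), open points did not, and black ticks give the value without V479. CYCS (0.89) and the top 4 genes of complex IV lie farthest to the right, NDUFAF5 (-1.13) lies far to the left, and for many small accessory subunits the tick lies to the right of the point.

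Cytochrome c, encoded by CYCS, shuttles electrons from complex III to complex IV and, once released into the cytosol, also starts the apoptotic caspase cascade. CYCS ran from 58.7 to 117 CPM in lactation (median 80.0) and from 20.9 to 56.5 CPM in virgins (median 45.2). Every lactating library was above every virgin one, and the level was higher in lactation in 15 of 15 animals. It was the only one of the 78 genes whose ranges did not overlap (1.98% of all loci, 1.22% higher and 0.762% lower). The log2 fold change was 0.89 ± 0.12 (SE), a 1.86-fold difference (edgeR adjusted p = 1.48e-07), and 0.85 without V479, where V479 held the lowest virgin value. Under plain totals it was 0.40 and still passed, but at 0.33 it did not pass when V479 was left out as well. The counted locus was 2.55 times as long as the gene's RefSeq span, so reads of a neighbour may be included.

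Complex IV, cytochrome c oxidase, had 5 genes higher, 0 lower and 7 that did not pass, with a median of 0.13, and 7 higher without V479 (median 0.40). The rises were 41.7% of its genes, against 23.8% of all loci, and 58.3% against 27.5% without V479. Under plain totals 3 were higher and 5 lower. NDUFA4 ran from 16.0 to 79.3 CPM in lactation (median 43.2) and from 16.0 to 44.8 CPM in virgins (median 18.7). Only V479 among virgins was above 27.7 CPM, a level that 13 of 16 lactating libraries passed, while L538 was level with the lowest virgin library. The log2 fold change was 1.00 ± 0.19, with 13 of 15 animals higher in lactation (edgeR adjusted p = 5.27e-05). COX7B, a small subunit of the complex, had 17.1 to 41.1 CPM in lactation (median 32.6) and 13.1 to 26.8 CPM in virgins (median 19.1). It was higher in 14 of 15 animals, and 11 of 16 lactating libraries exceeded the highest virgin (log2 fold change 0.71 ± 0.13, edgeR adjusted p = 1.98e-05). COX7A2L, which in mouse and human binds complexes III and IV into a supercomplex, was at 32.4 to 57.9 CPM in lactation (median 46.8) and 23.3 to 63.8 CPM in virgins (median 30.5). The virgin maximum was V581, and 14 of 15 animals were higher in lactation (log2 fold change 0.41 ± 0.12, edgeR adjusted p = 0.00458; -0.07 under plain totals). Both COX7B and COX7A2L lost the call under plain totals.

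The isoforms of complex IV subunits known for restricted use behaved differently from one another. NDUFA4L2, a paralogue of NDUFA4 that low oxygen induces in human and mouse cells, ran from 0.848 to 5.09 CPM in lactation (median 3.27) and from 0.0757 to 6.77 CPM in virgins (median 0.555). The single virgin library above all lactating ones was V479, and 10 of 15 virgin libraries lay below the lowest lactating one. Its log2 fold change was 1.39 ± 0.43 (edgeR adjusted p = 0.00675) and 1.89 without V479, with 14 of 15 animals higher in lactation. COX4I2, the alternative form of subunit 4 found mainly in lung in mammals, had 1.05 to 12.3 CPM in lactation (median 6.44) and 0.530 to 10.8 CPM in virgins (median 2.22). Without V479 the virgin maximum was 4.71 CPM, which 9 of 16 lactating libraries exceeded. The log2 fold change was 1.37 ± 0.37 (edgeR adjusted p = 0.00209) and 1.71 without V479, with 13 of 15 animals higher. The counted locus of COX4I2 was 1.61 times its RefSeq span, so reads of a neighbour may be included. Beside these low-level isoforms stand the endothelial sums of 392 to 2553 CPM in lactation and 48.7 to 1122 CPM in virgins, and what part of the rise they carry was not tested. COX7A1, the heart and muscle form of subunit 7A, was at 0.675 to 3.25 CPM in lactation and 0.680 to 7.46 CPM in virgins and did not pass (log2 fold change 0.09 ± 0.30, edgeR adjusted p = 0.820). COX6B2, known from testis, had 0.118 to 1.78 CPM in lactation and 0.0355 to 7.72 CPM in virgins, and its log2 fold change of -1.17 ± 0.60 did not pass either (edgeR adjusted p = 0.102). That value was -0.26 with the animal block and -0.13 with limma-voom, while under plain totals it was -1.63 and passed as lower (edgeR adjusted p = 0.0309). COX6B2 shares its row of counts with an Ensembl gene that has no symbol in the table, so its values cannot be assigned to either.

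Among the general subunits COX4I1, the main form of subunit 4, ran at 104 to 146 CPM in lactation (median 126) and 79.7 to 465 CPM in virgins (median 106). The virgin maximum was again V479, followed by 209 CPM, and the gene did not pass (log2 fold change -0.14 ± 0.19, edgeR adjusted p = 0.539, 0.13 without V479). COX5B, which carries a zinc site, ran from 28.6 to 52.1 CPM in lactation and from 25.9 to 99.0 CPM in virgins. Its log2 fold change of 0.16 ± 0.15 did not pass with V479 and, at 0.35, passed without it (edgeR adjusted p = 0.382 and 0.00437). COX6A1, whose row is shared with GATC, also passed without V479 (0.22) and not with it, and COX5A and COX7A2 passed in neither fit.

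**Figure D2:**
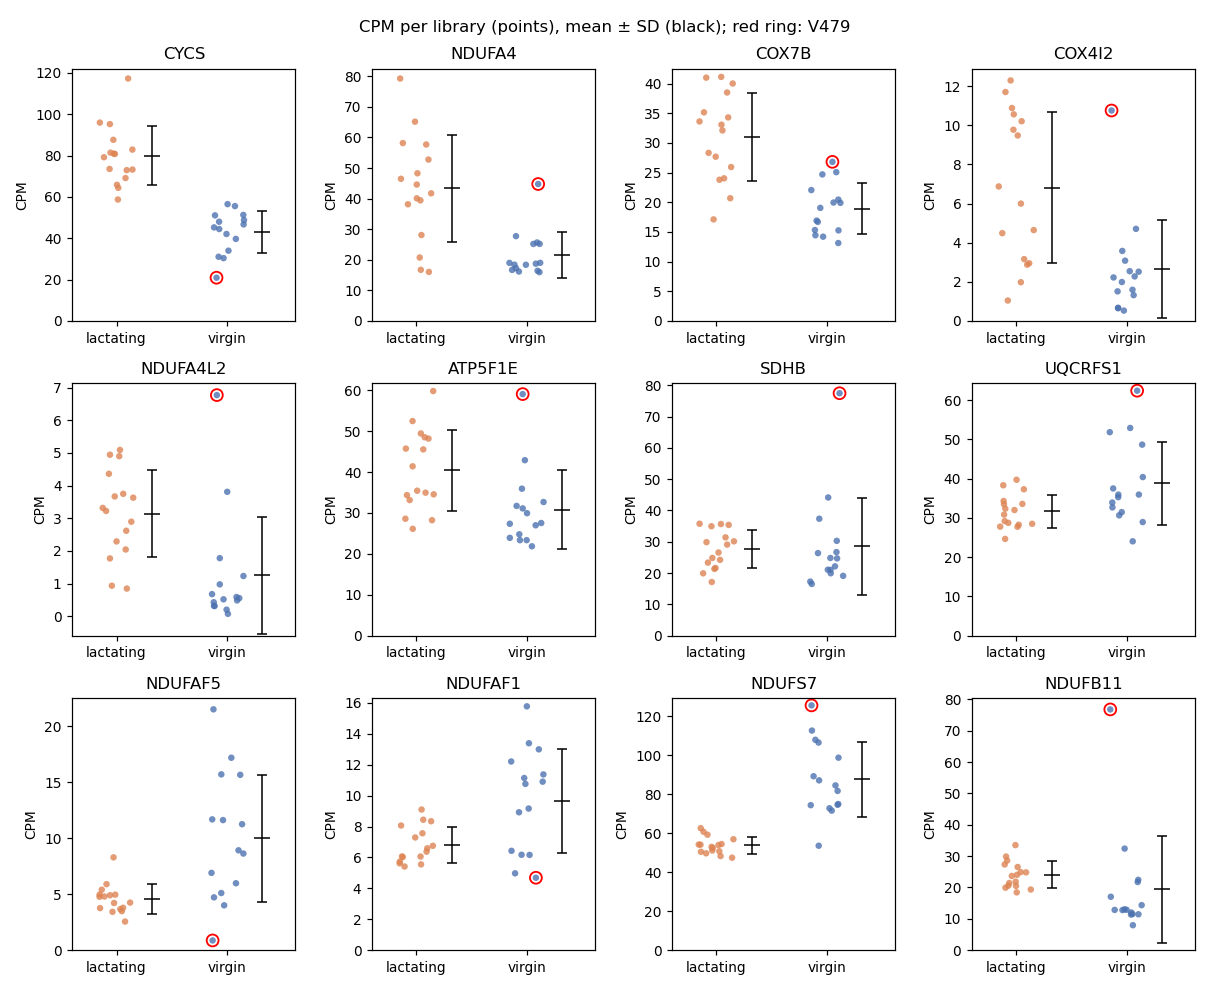
CPM of 12 of the genes in each lactating and virgin library (points), with the mean ± SD of each stage in black (n = 16 lactating, 15 virgin) and V479 ringed in red. CYCS is the one gene of the panel with no overlap, and V479 is the highest virgin point for NDUFB11 (76.8 CPM), SDHB (77.5 CPM) and NDUFA4L2 (6.77 CPM) and the lowest for CYCS and NDUFAF5.

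Complex I divides into 7 core subunits, which bind the flavin, the iron-sulphur clusters and ubiquinone, 30 accessory subunits around them, and 7 assembly factors that are not part of the finished enzyme. Over the 44 genes 7 were higher and 6 lower (15.9% and 13.6%, against 23.8% and 31.3% of all loci), with a median of 0.02. Without V479 18 were higher and 7 lower (40.9% and 15.9%, against 27.5% and 32.3% of all loci), with a median of 0.17. Its 3 parts gave different counts: the core had 1 higher and 2 lower, the accessory subunits 6 higher and 1 lower, and the assembly factors 0 higher and 3 lower. The medians were -0.20, 0.15 and -0.36 in that order, and -0.14, 0.31 and -0.36 without V479. Under plain totals 0 of the 44 were higher and 24 lower (54.5%). Of all loci 10.3% were higher and 57.9% lower there.

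Among the core subunits NDUFS7, which holds the last iron-sulphur cluster before ubiquinone, shares its row with DAZAP1, an RNA-binding protein gene. The counted locus was 5.87 times the RefSeq span of NDUFS7, and its values cannot be assigned to either gene. The row had 47.4 to 62.5 CPM in lactation (median 53.4) and 53.5 to 125 CPM in virgins (median 84.5). Only V502 among virgins lay within the lactating range, the next being 71.5 CPM, and the level was lower in lactation in 15 of 15 animals. The log2 fold change was -0.71 ± 0.09 (edgeR adjusted p = 1.36e-07), the strongest call among the falls. NDUFV2, an iron-sulphur subunit of the NADH-oxidising end, ran from 22.9 to 39.5 CPM in lactation (median 31.8) and from 20.5 to 49.6 CPM in virgins (median 35.6), with wide overlap. Its fall (log2 fold change -0.25 ± 0.10, edgeR adjusted p = 0.0391) lost the call with the animal block (adjusted p = 0.116) and when any 1 of 18 libraries was left out, with an adjusted p of up to 0.135. NDUFS3 had 5.16 to 9.70 CPM in lactation and 4.31 to 13.4 CPM in virgins and did not pass (log2 fold change -0.28 ± 0.16, edgeR adjusted p = 0.145). NDUFV1, which binds the flavin, and NDUFS1 did not pass in either fit, and NDUFS8 passed as higher without V479 (0.15 with it, 0.49 without).

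Among accessory subunits NDUFA2 had 4.60 to 12.7 CPM in lactation (median 8.66) and 3.07 to 10.5 CPM in virgins (median 5.66). It was higher in 14 of 15 animals (log2 fold change 0.59 ± 0.16, edgeR adjusted p = 0.00275). NDUFA5, a subunit of the matrix arm, was at 12.2 to 25.8 CPM in lactation (median 18.8) and 9.16 to 18.6 CPM in virgins (median 13.7; log2 fold change 0.40 ± 0.11, edgeR adjusted p = 0.00390, and -0.12 under plain totals). Its groups overlapped, with 8 of 16 lactating libraries above the highest virgin and 11 of 15 animals higher. NDUFB6, of the membrane arm, had 7.99 to 15.0 CPM in lactation (median 10.7) and 6.77 to 16.7 CPM in virgins (median 7.68). Here 9 of 15 virgin libraries lay below the lowest lactating one, and the log2 fold change was 0.40 ± 0.13 (edgeR adjusted p = 0.00927, and -0.09 under plain totals). NDUFB3, also of the membrane arm, also rose (log2 fold change 0.55 ± 0.15, edgeR adjusted p = 0.00290), but its locus is 2.40 times its RefSeq span. NDUFS6, which binds zinc, and NDUFV3 also passed, at 0.54 ± 0.19 and 0.27 ± 0.12 (edgeR adjusted p = 0.0180 and 0.0478). NDUFV3 lost the call when any 1 of 9 libraries was left out, with an adjusted p of up to 0.0882.

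NDUFA9, an accessory subunit beside the ubiquinone channel, passed as lower. It ran from 13.9 to 20.3 CPM in lactation (median 16.8) and from 14.4 to 52.7 CPM in virgins (median 19.7), and the next virgin library after V479 was at 23.5 CPM. Its log2 fold change was -0.35 ± 0.13 (edgeR adjusted p = 0.0258), and -0.19 without V479. It lost the call with the animal block (adjusted p = 0.0704) and without L581 or V468, with an adjusted p of up to 0.0758.

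NDUFB11, a membrane-arm subunit and the complex I gene with the highest RPKM in the authors' deposited table (6.89 per kilobase of genomic span in lactation), had a call that changed with V479 and with the animal block. Lactating libraries ran from 18.4 to 33.5 CPM (median 23.9) and virgin ones from 7.96 to 76.8 CPM (median 12.9), the second highest virgin being 32.4 CPM. With V479 and without the animal block the log2 fold change was 0.32 ± 0.23 and did not pass (edgeR adjusted p = 0.242). With V479 kept and the animal as a block it was 0.59 and passed (edgeR adjusted p = 0.00893). Without V479 and without the block the value was 0.66 and passed (edgeR adjusted p = 0.000268), and 13 of 15 animals were higher in lactation. In the unblocked fit 10 accessory subunits passed as higher without V479 and not with it, namely NDUFA1, NDUFA3, NDUFA7, NDUFA8, NDUFA12, NDUFA13, NDUFB4, NDUFB7, NDUFB11 and NDUFC2. With V479 kept, NDUFA8 and NDUFA13 also passed with the animal block (adjusted p = 0.0228 and 0.00708), NDUFA12 passed without L581, V468 or V502, and NDUFA13 passed without L581. Under plain totals all 10 were below 0. NDUFB2 passed as lower without V479 (-0.26) and not with it, on a locus 2.81 times its RefSeq span.

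Of the 6 complex I genes that fell, 3 were assembly factors. This was 42.9% of the 7 assembly factors, against 31.3% of all loci, and rests on few genes. NDUFAF5, which in human cells hydroxylates an arginine of NDUFS7, had 2.55 to 8.29 CPM in lactation (median 4.51) and 0.868 to 21.5 CPM in virgins (median 8.92). V479 was the lowest virgin library, 9 of 15 virgin libraries lay above the highest lactating one, and 13 of 15 animals were lower in lactation. The log2 fold change was -1.13 ± 0.25 (edgeR adjusted p = 0.000355) and -1.22 without V479. NDUFAF6, needed in human cells for the part of the complex built on ND1, ran from 10.2 to 16.5 CPM in lactation (median 13.6) and from 5.99 to 38.6 CPM in virgins (median 19.8). The virgin libraries were spread on both sides of the narrow lactating range, with 9 above and 3 below it (log2 fold change -0.65 ± 0.19, edgeR adjusted p = 0.00363). NDUFAF1, which works with ACAD9 and ECSIT on the membrane arm, was at 5.41 to 9.10 CPM in lactation (median 6.48) and 4.69 to 15.8 CPM in virgins (median 10.8). Its log2 fold change was -0.51 ± 0.15 (edgeR adjusted p = 0.00489), and it was lower in 12 of 15 animals. NDUFAF4 had -0.36 ± 0.16 and did not pass (edgeR adjusted p = 0.0618), although it passed with the animal block (adjusted p = 0.0218). Its locus is 5.68 times its RefSeq span. NDUFAF2, the complex I gene with the lowest RPKM in the authors' deposited table, had 0.530 to 1.99 CPM in lactation and 0.406 to 1.88 CPM in virgins and did not pass (log2 fold change 0.29 ± 0.20, edgeR adjusted p = 0.228). NDUFAF3 and NDUFAF7 did not pass either, with or without V479.

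Complex II, succinate dehydrogenase, is the one complex with no mitochondrially encoded subunit, and also a citrate cycle enzyme. None of its 4 genes passed in lactation against virgin, with or without V479 (background 55.1% and 59.8%). Under plain totals all 4 were called lower, where 57.9% of all loci were. SDHA, the flavoprotein, was at 40.8 to 82.7 CPM in lactation (median 53.7) and 36.4 to 164 CPM in virgins (median 57.6), with a log2 fold change of -0.22 and a 95% interval of -0.53 to 0.09. SDHB, the iron-sulphur subunit, had 17.1 to 35.8 CPM in lactation (median 27.8) and 16.5 to 77.5 CPM in virgins (median 24.7), a log2 fold change of -0.05 with an interval of -0.39 to 0.29. SDHC and SDHD, the membrane anchors, stood at -0.10 (interval -0.36 to 0.16) and -0.03 (interval -0.24 to 0.18). Since these intervals reach from -0.53 to 0.29, the tests do not show that complex II is alike in both stages.

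Complex III had 1 gene higher, 1 lower and 7 that did not pass, with a median of -0.01, and 3 higher and 1 lower without V479. This was 11.1% in each direction, against 23.8% higher and 31.3% lower of all loci. Without V479 it was 33.3% and 11.1%, against 27.5% and 32.3%. Under plain totals 0 were higher and 6 lower (66.7%, against 57.9% of all loci), with a median of -0.50. UQCR10, a small accessory subunit, had 8.14 to 19.4 CPM in lactation (median 12.1) and 4.84 to 17.4 CPM in virgins (median 7.58). Virgin libraries below the lowest lactating one numbered 10 of 15, and the log2 fold change was 0.52 ± 0.17, higher in 13 of 15 animals (edgeR adjusted p = 0.00876). UQCRFS1, the Rieske iron-sulphur protein, was at 24.6 to 39.7 CPM in lactation (median 31.4) and 24.0 to 62.4 CPM in virgins (median 35.9). In 12 of 15 animals it was lower in lactation, and the log2 fold change was -0.29 ± 0.11 (edgeR adjusted p = 0.0248). The call was lost with the animal block (adjusted p = 0.0734) and without L581, V468, V502 or V598, with an adjusted p of up to 0.0796. UQCR11 and UQCRQ passed as higher without V479 (0.40 and 0.38) and not with it. CYC1, the haem-bearing cytochrome c1, had 21.0 to 36.7 CPM in lactation (median 29.9) and 16.8 to 121 CPM in virgins (median 30.9) and did not pass (log2 fold change -0.24 ± 0.20, edgeR adjusted p = 0.310, 0.06 without V479). The core proteins UQCRC1 and UQCRC2, and UQCRB and UQCRH, did not pass in either fit.

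All 8 ATP5 genes had log2 fold changes above 0, between 0.19 and 0.39 with a median of 0.24, and 2 of them passed. Without V479 5 passed as higher (62.5%, against 27.5% of all loci). Under plain totals all 8 were below 0, with a median of -0.26 and 1 called lower (12.5%, against 57.9% of all loci). ATP5F1E, the epsilon subunit of the catalytic head, had 26.1 to 59.8 CPM in lactation (median 38.4) and 21.9 to 59.1 CPM in virgins (median 27.5). The second highest virgin was 42.9 CPM, which 7 of 16 lactating libraries exceeded, and the log2 fold change was 0.39 ± 0.14 (edgeR adjusted p = 0.0150; -0.10 under plain totals). ATP5MG, subunit g of the membrane part, ran from 46.2 to 80.4 CPM in lactation (median 62.5) and from 35.0 to 66.9 CPM in virgins (median 48.7). Both genes were higher in 12 of 15 animals, and that of ATP5MG differed by 0.34 ± 0.10 in log2 (edgeR adjusted p = 0.00548; -0.15 under plain totals), on a locus 2.47 times its RefSeq span.

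ATP5PD, of the peripheral stalk, and ATP5ME, subunit e, passed as higher without V479 (0.30 and 0.39) and not with it. The locus of ATP5ME is 1.77 times its RefSeq span. ATP5IF1, the inhibitor that stops ATP synthase from running backwards, was at 15.5 to 27.5 CPM in lactation and 8.77 to 36.5 CPM in virgins (log2 fold change 0.25 ± 0.15 with V479, 0.37 without). It did not pass with V479 in the unblocked fit (edgeR adjusted p = 0.160), and passed without V479 and, at the threshold, with V479 and the animal block (edgeR adjusted p = 0.0499). ATP5PO, the subunit that joins the head to the stalk, ATP5MD, of the membrane part, and ATP5S passed in neither fit, with log2 fold changes of 0.19 ± 0.12, 0.23 ± 0.11 and 0.24 ± 0.20.

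**Figure D3:**
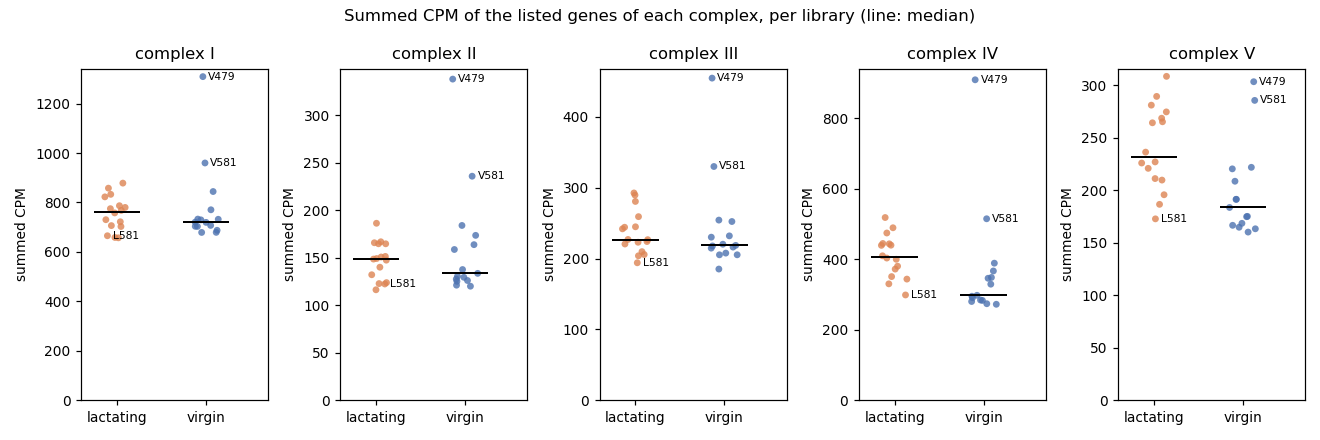
Summed CPM of the listed genes of each complex in every library, lactating left and virgin right, with the median as a line; V479, V581 and L581 are marked. Medians are 763 and 720 CPM for complex I and 407 and 298 CPM for complex IV, lactating and virgin, and V479 and V581 are the top virgin points in all 5 panels.

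Summed over its listed genes, complex IV had 299 to 519 CPM in lactation (median 407) and 272 to 910 CPM in virgins (median 298), and the sum was higher in lactation in 13 of 15 animals. Complex V summed to 173 to 308 CPM in lactation (median 231) and 160 to 303 CPM in virgins (median 183). The sum was higher in 12 of 15 animals. Its 8 listed genes include ATP5IF1 and ATP5S, and only ATP5F1E is of the catalytic head. For complex I the medians were 763 CPM in lactation and 720 CPM in virgins, with 7 of 15 animals higher, or 11 of 15 without the assembly factors. Complex II (149 CPM in lactation and 134 CPM in virgins) and complex III (227 CPM in lactation and 219 CPM in virgins) were higher in 8 and 10 of 15 animals. In the deposited RPKM values the same sums had medians of 44.2 in lactation and 32.2 in virgins for complex IV and of 53.3 in lactation and 44.6 in virgins for complex I. No test was made on the sums, which weigh genes by their counts.

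The cows differed in the direction of the whole set. In 12 of 15 animals the median difference over the 78 genes (log2 CPM, lactating minus virgin) lay between 0.13 and 0.46. It was highest in the cow of L502, where 69 of 78 genes were higher in lactation. In the cow of L595 it was -0.09, with 33 of 78 higher. The cows of L479 and L581 stood at -0.65 and -0.69, with 25 and 7 of 78 higher. The median over all loci was between -0.04 and 0.04 in every animal. TMM scaling itself tends to hold that median near 0, so it is not an independent reference.

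Both went the other way, in different manners. In the cow of L581 the genes moved together, 7 of 78 being higher in lactation, with L581 the lowest lactating library and V581 the second highest virgin library of the summed 78 genes. For the cow of L479 the direction depended on the gene, with NDUFV1, NDUFS8, CYC1, COX4I1 and UQCRC1 lower in L479 than in V479 and CYCS, NDUFB3 and NDUFAF5 higher. CYC1 was at 26.4 CPM in L479 and 121 CPM in V479, while CYCS was at 79.2 CPM in L479 and 20.9 CPM in V479. These genes were picked after their values were seen.

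**Figure D4:**
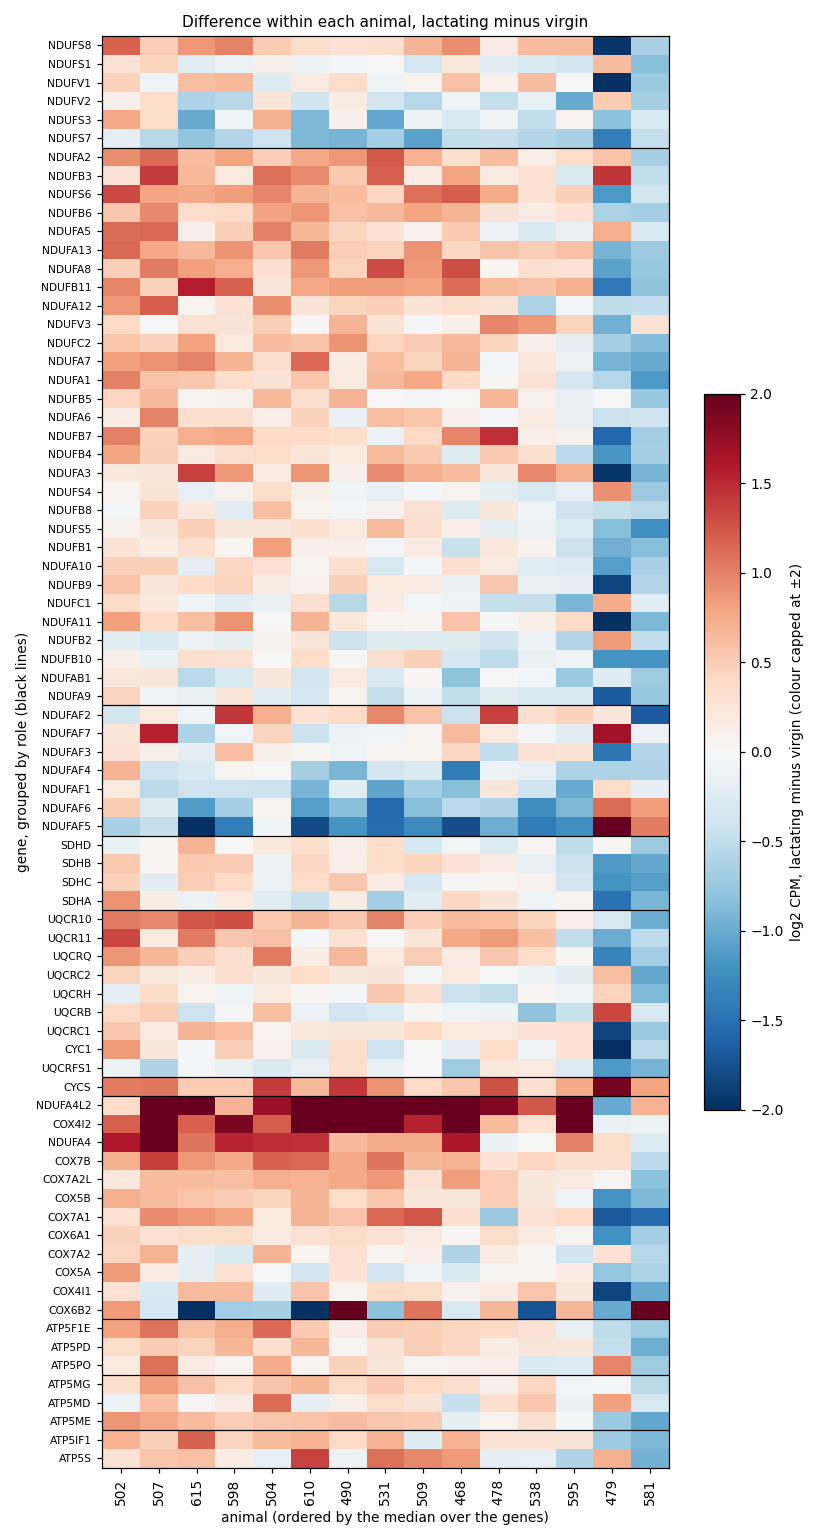
Difference in log2 CPM, lactating minus virgin, for all but 1 of the 78 genes (rows, grouped by role) in each of the 15 animals with both stages (columns, ordered by the median over the genes); red is higher in lactation, blue lower, capped at 2 either way. The last pair of columns, the cows of L479 and L581 (medians -0.65 and -0.69), are largely blue, the NDUFS7 row is blue in all 15 animals, and the CYCS row is red in all 15.

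Within a stage, libraries high for one of the genes tended to be high for the others. Over all pairs of the 78 genes the median Pearson correlation of log2 CPM was 0.50 in the 16 lactating libraries, with 84.3% of pairs above 0, and 0.38 in the 15 virgin libraries, with 66.4% of pairs above 0. Without V479 it was 0.33 in 14 virgin libraries, with 75.5% of pairs above 0. The median over all pairs of loci was about 0 (-4.04e-05 in lactation). The points share library depth and composition, and the values are a description. Genes with the closest median correlation to the others in lactation were NDUFA1 (0.74), UQCR10 (0.74) and SDHB (0.72). In lactation 5 genes had a median correlation below 0, namely COX6B2 (-0.50), NDUFV3 (-0.44), NDUFS7 (-0.43), NDUFAF5 (-0.36) and NDUFAF1 (-0.04). In virgins 16 genes had a median below 0, and 10 without V479. In virgins without V479 the lowest were NDUFAF6 (-0.43) and NDUFAF5 (-0.39), and CYCS (-0.14) was also below 0.

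Not every subunit that mitochondrial DNA encodes was found by name. Those found fall into 6 distinct loci in the table, 1 of which joins ATP6, ATP8, COX1, COX3, ND5 and cytb. Of the 6 loci 5 were higher in lactation (6 without V479) and 0 lower, with a median log2 fold change of 0.58, although 0 passed under plain totals (median 0.07). Of all loci 23.8% were higher, 27.5% without V479 and 10.3% under plain totals. The joined locus had 0.63 ± 0.14 and was higher in 15 of 15 animals (edgeR adjusted p = 0.000340). ND1, a proton-pumping subunit of complex I, had 0.63 ± 0.11, ND4 with ND4L 0.54 ± 0.13, ND6 0.88 ± 0.17 and ND2 0.33 ± 0.12. ND3 passed without V479 (0.76) and not with it in the unblocked fit (0.36 ± 0.24), and with V479 kept and the animal as a block all 6 loci passed as higher (ND3 0.55, edgeR adjusted p = 0.00583). The share of all counts in mitochondrial genes was 4.74% to 9.48% in lactation and 4.67% to 8.24% in virgins, so the shares overlapped. Whether the nuclear and mitochondrial genes differ in their change was not tested.

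Genes that serve the chain without belonging to the 78 were counted in the same fit. Beside the counts below, 23.8% of all loci were higher and 31.3% lower, or 27.5% and 32.3% without V479. With the animal block these were 27.9% and 27.5%, and under plain totals 10.3% and 57.9%. Of 37 further assembly factors 5 were higher and 13 lower (13.5% and 35.1%), with a median of -0.14, and 8 and 13 without V479. With the animal block 9 were higher and 13 lower, and under plain totals 1 was higher and 25 lower, with a median of -0.62. COX17, the copper chaperone of complex IV, had 6.83 to 15.6 CPM in lactation (median 13.1) and 2.96 to 9.63 CPM in virgins (median 4.75). It passed as higher (log2 fold change 1.17 ± 0.17, edgeR adjusted p = 9.54e-07) and stayed higher under plain totals (0.63). ATPAF1, a chaperone for the head of ATP synthase, had -0.96 ± 0.15, and ACAD9, the partner of NDUFAF1, had -0.86 ± 0.15 and was lower in lactation in all 15 animals.

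Of 20 genes of mitochondrial biogenesis and mitochondrial DNA expression 2 were higher and 9 lower, with a median of -0.34. In percent this was 10.0% and 45.0%, against 23.8% and 31.3% of all loci, and the counts were equal without V479. With the animal block 2 were higher and 7 lower (10.0% and 35.0%). Under plain totals 1 was higher and 17 lower, with a median of -0.84. PPRC1, a coactivator of nuclear genes for mitochondria, had -0.60 ± 0.12, and ESRRG, a nuclear receptor that drives such genes in mouse heart, had -1.59 ± 0.31. POLG2 shares its row with PECAM1, an endothelial gene, and the row's 1.60 ± 0.30 cannot be given to POLG2. That row is counted among the 2 rises. Of 15 tested genes of inner membrane shape, import and chaperoning 2 were higher and 6 lower (13.3% and 40.0%). Among the falls were TIMM50 of the import channel (-0.62 ± 0.19), OPA1 of inner membrane fusion (-0.61 ± 0.13) and the chaperonin HSPE1 (-0.32 ± 0.11). The animal block left 2 higher and 3 lower, without HSPE1 (adjusted p = 0.0507), and plain totals gave 0 higher and 13 lower. Among 9 genes of other electron entry and ATP export 1 was higher and 2 lower (11.1% and 22.2%). The falls were DHODH of pyrimidine synthesis (-1.23 ± 0.24) and GPD2 of the glycerol phosphate shuttle (-0.68 ± 0.16). The rise was the ADP/ATP carrier SLC25A4 (0.68 ± 0.16), which did not pass under plain totals. The counts of these 9 were 2 higher and 2 lower with the animal block or without V479, and 0 higher and 6 lower under plain totals.

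The authors' deposited table has adjusted p-values under 0.05 for 4 of the 78 genes as higher (10.7% of all loci) and for 1 as lower (10.4% of all loci). In the authors' deposited table the higher ones included CYCS (1.34e-09), COX7B (0.00110) and NDUFA4 (0.00279), and the lower one was the NDUFS7 row (4.31e-07). The authors' deposited table gives an adjusted p of exactly 1 for 72 of the 78.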

How the data were processed

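Poly-A, strand-specific RNA sequencing libraries of 31 organoid samples were used, per the labels' protocols. HISAT2 2.0, SAMtools, StringTie 1.3.2, featureCounts 1.5.2, Subread, edgeR and build UMD3.1 are named in the submitters' processing notes, but no source used here gives their roles or how reads with several matches were treated, which matters for genes with processed copies. The authors deposited whole-number read counts per gene with no normalization, as the values show, and these were analysed. The RPKM values deposited by the authors were divided by a locus length recovered from the counts (whole to within 1.77e-07 bases), which lay within 10% of the RefSeq gene span, introns included, for 61.7% of 12802 rows and 55 of the 78 genes, so RPKM does not rank transcripts between genes. The deposited log2 fold changes are virgin over lactating, as judged from the deposited RPKM values. No source used here says how the deposited adjusted p-values (q-values) were made.

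Rows with identical counts were taken once (592 loci are listed more than once), because their reads cannot be divided between names. Counts were fitted with edgeR 4.0.16 in R 4.3.3: filterByExpr (minimum count 10, minimum total 15), TMM, estimateDisp, robust glmQLFit and glmQLFTest with stage as the only term, on 12472 loci, with Benjamini-Hochberg adjustment over all of them and a threshold of 0.05. All 78 genes passed the filter. SE is the log2 fold change over the square root of F. Alternatives were another scaling, plain totals, other filters, DESeq2 1.42.0, limma-voom (limma 3.58.1), the animal as a block and leaving out libraries. The steps were tested on simulated counts. Libraries of a stage come from different animals. Chi-square per degree of freedom between libraries was at least 48.3 in lactation and 37.5 in virgins, so none was a repeat. The animal number pairs the libraries, per the series design: after removal of stage means, own-animal correlations were 0.0663 to 0.396 (mean 0.217), against a mean of -0.0157 with other animals.

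The genes, lists, tests and named genes were chosen with earlier results of these data known. Named genes were, in each part of a complex, the 4 with the smallest p, calls against the majority, tissue and hypoxia isoforms, the highest and lowest RPKM of each complex, and the 3 smallest p of each related list; the other members named are given for completeness. No coordinates are printed, since the reference table (RefSeq, ARS-UCD2.0) is of another build. Of the 78 genes 1 is counted in the totals and not reported here by itself.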

Additional observations from a re-analysis of the deposited data

How the results depend on the processing

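The counts of genes called depended on V479 and on the scaling. With V479 included 16 genes were higher and 7 lower. Leaving out L478 and L538, the lactating libraries with the lowest milk shares, gave 15 higher and 7 lower, with a median of 0.11. Higher genes numbered 34 without V479, 32 without V479 and V490 (27.4% of all loci), 39 without V479 and V581 (28.5% of all loci), and 29 with the animal block and without the cow of V479. Leaving out each library in turn gave 15 to 34 higher and 4 to 8 lower, with 4 lower without L581 or V468. Without the 5 animals whose virgin title carries a letter, which leaves fewer samples, 8 were higher and 2 lower (18.2% and 23.0% of all loci). Plain totals gave 4 higher and 40 lower, and 3 higher and 40 lower without V479. The gene that was no longer called higher there was CYCS (0.33). With plain totals the median was -0.37 over all 78 genes, -0.44 in complex I, -0.50 in complex III and -0.26 in complex V, and without V479 as well it was -0.31, -0.35, -0.44 and -0.19. Leave-one-out medians ran from 0.06 to 0.21 over all genes, from -0.00 to 0.17 in complex I, from -0.05 to 0.09 in complex III and from 0.20 to 0.34 in complex V. Of the 16 rises, plain totals turned the sign of ATP5F1E (-0.10, and -0.0510 without V479), ATP5MG (-0.15 in both), COX7A2L (-0.0661 and -0.0619), NDUFA5 (-0.12 and -0.16), NDUFB6 (-0.0897 and -0.0369) and NDUFV3 (-0.15), and without V479 also that of NDUFB3 (-0.0146). Every ATP5 gene was below 0 there, among them ATP5PD (-0.28) and ATP5PO (-0.32, and -0.37 without V479). The cause was not tested. The replicate block (animal) gave 20 higher and 5 lower and ended the calls of NDUFA9, NDUFV2 and UQCRFS1. Counts stayed within 1.5 times of 16 and 7 with DESeq2 (18 and 7), limma-voom (20 and 5), other size factors, milk genes left out before scaling, all rows as deposited, no filter and the stricter filter. The fits without V479 and V581, with the block without the cow of V479, and with plain totals without V479, and the count without shared or long loci, were chosen after seeing the data.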
